A study of Mus musculus with 12 samples.

Results

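Of the 7611 regions called for H3K27me3 in crypts of the mouse small intestine, 733 (9.63%) had no base in common with any of the 13797 regions called in villi, and these crypts-only peaks are described here. They were chosen by the presence of a call in the crypts H3K27me3 library and its absence in the villi H3K27me3 library, so the values of these libraries describe the peaks and test nothing. The other 6878 crypts peaks met a villi peak over at least 1 bp and are called shared. The study profiled histone H3 modifications in the proliferative crypts and the differentiated villi, in which it examined proteolytic clipping of H3 tails. Chromatin of each compartment was immunoprecipitated against 5 modifications, H3K27me3, H3K4me3, H3K4me1, H3K9me3 and H3K9me2, and sequenced beside an input, which gave 12 libraries. Villi were scraped from the opened intestine and crypts were then released with EDTA, and neither group carried a treatment or an allele named in the labels. Strain, age, sex and number of the animals are not given in the sources used here. Each compartment and modification is represented by 1 library, so the differences have no replicates behind them and no test was made. Depth is unknown, since the deposited lists hold no read counts, only a position, a numbered name and a score for each peak. Shares carry 95% Wilson intervals that cover counting error alone, and neighbouring peaks are not independent.

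H3K27me3 is deposited by the Polycomb repressive complex PRC2 and marks promoters and broader domains of genes that are kept silent, among them developmental regulators that a tissue does not use. H3K4me3 marks CpG-rich promoters, and promoters that carry both H3K4me3 and H3K27me3 are termed bivalent. H3K4me1 is typical of enhancers and of the flanks of promoters, whereas H3K9me3 marks constitutive heterochromatin and repeats.

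PRC2 in mammals is found mostly over CpG-rich DNA, and the following windows show the CpG-rich sequence inside high-scoring crypts-only peaks. They are the 200 bases with most CpG dinucleotides inside 2 of the 3 highest-scoring promoter peaks and the 2 highest-scoring peaks over 10 kb from a coding start site, read from GRCm38 (mm10) without annotated UTR bases. They are given on the plus strand, 5′ to 3′, with CpG in capitals.
Bmp8a, chr4:123342439-123342638: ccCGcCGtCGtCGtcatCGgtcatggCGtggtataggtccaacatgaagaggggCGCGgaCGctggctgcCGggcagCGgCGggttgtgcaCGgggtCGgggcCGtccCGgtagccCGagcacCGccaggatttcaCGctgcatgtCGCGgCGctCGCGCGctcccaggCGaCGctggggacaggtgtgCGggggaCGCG
Necab2, chr8:119447254-119447453: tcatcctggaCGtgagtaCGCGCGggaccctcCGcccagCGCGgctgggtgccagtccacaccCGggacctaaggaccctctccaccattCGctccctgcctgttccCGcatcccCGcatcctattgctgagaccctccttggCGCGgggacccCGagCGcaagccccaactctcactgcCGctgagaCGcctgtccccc
distal to Hand1, chr11:57845100-57845299: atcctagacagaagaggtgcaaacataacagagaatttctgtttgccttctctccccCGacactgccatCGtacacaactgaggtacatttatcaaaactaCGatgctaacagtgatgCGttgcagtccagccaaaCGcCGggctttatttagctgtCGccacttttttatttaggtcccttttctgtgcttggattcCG
distal in Gm20388, chr8:121311000-121311199: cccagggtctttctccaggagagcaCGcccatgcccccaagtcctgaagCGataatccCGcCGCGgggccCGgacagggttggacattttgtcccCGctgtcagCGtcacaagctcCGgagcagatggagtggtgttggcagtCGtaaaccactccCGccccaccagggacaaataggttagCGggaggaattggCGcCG
The Bmp8a window touches an exon of this minus-strand gene and holds 30 CpG, the most of the 4, at an observed over expected CpG ratio of 1.17. The Necab2 window overlaps an exon and holds 17. The window distal to Hand1, in intergenic sequence with a GC content of 45.5%, holds 8, and the other distal window, in an intron of the long annotated locus Gm20388, holds 14. Over whole peaks the CpG density was much lower than in these windows, with a median of 5.59 CpG per 200 bases at promoter crypts-only peaks and 2.47 at the others.

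The crypts-only peaks were weak and narrow within their own list. Their score, taken as the authors' −log10 p-value, had a median of 11.6 (quartiles 10.7 and 13.0, highest 25.9), against 15.7 (highest 63.5) for shared peaks. A score under 12 was held by 480 of 733 (65.5%) and by 1713 of the shared peaks (24.9%), and 74 of the crypts-only peaks stood in the upper 50% of the list. Scores were coarse near the threshold, with 143 peaks at one value of 10.7 and 97 at one of 11.6, so the order of peaks there carries little information. The median width was 817 bp (549 and 1189 bp) against 1952 bp, and the 733 peaks covered 712587 of the 20260670 bp of the crypts list, or 3.52%.

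**Figure D1:**
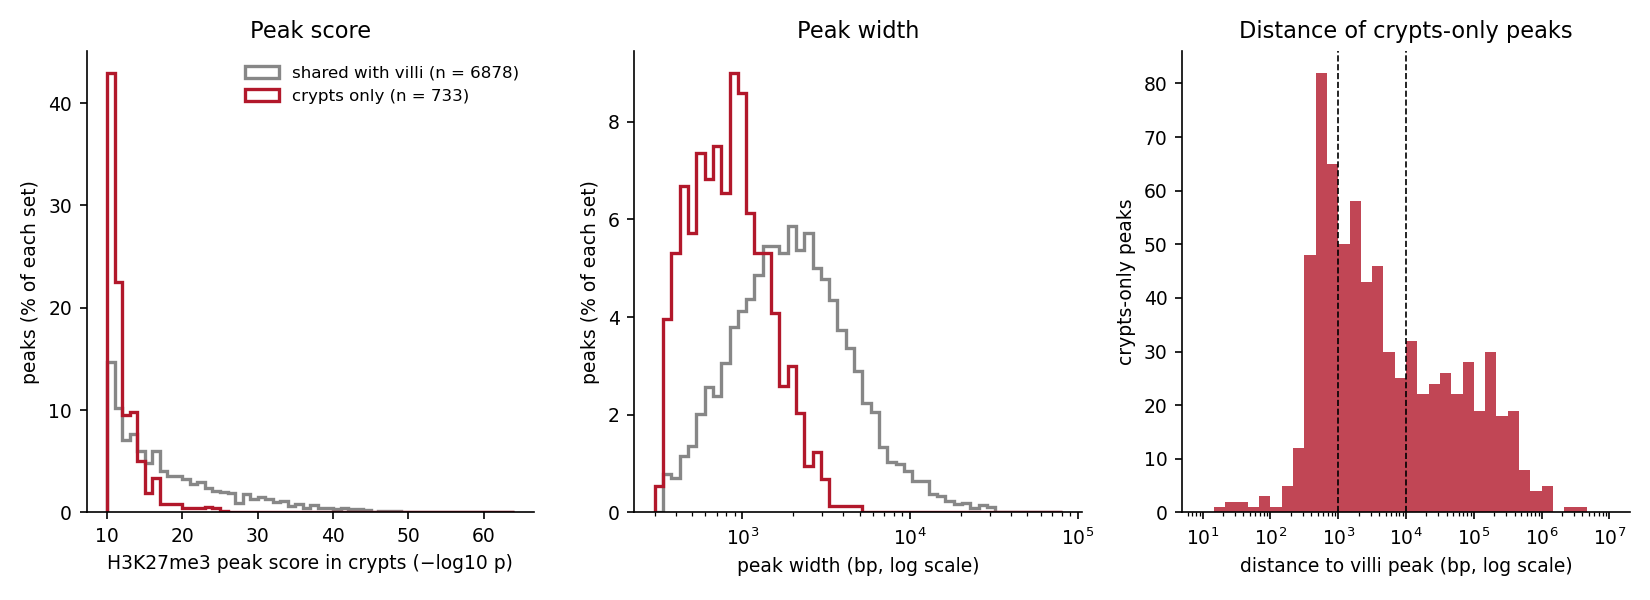
Left and middle, share of peaks (%) by H3K27me3 score in crypts (−log10 p) and by width (bp, log scale) for crypts-only (red) and shared (grey) peaks. Right, number of crypts-only peaks by distance to the nearest villi H3K27me3 peak (bp, log scale), with dashed lines at 1 and 10 kb. Crypts-only peaks lie at the low end of score and width, and 222 of them lie within 1 kb of a villi peak.

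Many of the crypts-only peaks lay beside H3K27me3 of villi. The nearest villi peak was within 1 kb for 222 (30.3%), at 1 to 10 kb for 252 (34.4%) and further for 259 (35.3%), with a median distance of 2951 bp. Villi peaks stood within 1 kb on both sides of 32 of them. The members nearest to the limit of the rule, chr2:32089233-32090867 with a score of 10.7 and chr4:137049632-137050483 with 10.1, missed a villi peak by 21 and 30 bp. The shared peaks just on the other side, chr8:95688028-95688492 with a score of 10.1 and chr2:167669151-167669611 with 10.2, met one over 6 and 22 bp. The villi peaks are numbered in genome order with gaps in the numbers. At least 1 number was missing between the villi peaks flanking 663 of the 731 crypts-only peaks that had a villi peak on both sides (90.7%), so at least 1 numbered villi call there is not in the list used here. Over all 13777 pairs of neighbouring villi peaks the share was 43.2%, and gaps with a missing number held 67.7% of the bases between such neighbours. The part of such unlisted calls in the absences was not tested. The most isolated peaks were on chromosome X, where the promoter peak of Syn1, a synaptic vesicle protein, was 4007706 bp from the nearest villi peak. On this chromosome 9 of 43 crypts peaks were crypts-only (20.9%, 11.4 to 35.2%), and on the autosomes the share ranged from 7.13% on chromosome 15 to 15.6% (10.7 to 22.4%) on chromosome 16.

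The crypts-only peaks lay at promoters less often than the shared ones. Within 1 kb of a coding start site were 165 of 733 (22.5%, 19.6 to 25.7%), against 3178 of 6878 shared peaks (46.2%, 45.0 to 47.4%). A further 69 overlapped an exon (9.41%), 130 an intron alone (17.7%), and 369 were intergenic (50.3%, 46.7 to 53.9%, against 32.1% of shared peaks). The deficit at promoters was smaller among peaks of like score. From 10 to 11 the promoter share was 14.3% (10.9 to 18.6%) against 20.0% (17.6 to 22.6%), from 15 to 20 it was 40.4% (28.6 to 53.3%) against 46.7%, and above 20 it was 58.8% (36.0 to 78.4%) against 69.7%, so that the intervals met in these bands. From 13 to 15 they did not, at 25.7% (18.4 to 34.6%) against 38.1% (35.0 to 41.2%). By distance, 35.5% (29.9 to 41.5%) of the peaks over 10 kb from a villi peak were at a promoter, 10.3% (7.14 to 14.7%) of those at 1 to 10 kb and 21.2% of the nearest. Sequence followed the position. The observed over expected CpG ratio had a median of 0.259 for the crypts-only and 0.347 for the shared peaks, but 0.421 and 0.445 when promoter peaks were compared and 0.230 and 0.262 elsewhere. Over 50% of the bases were soft-masked repeats in 38 crypts-only peaks (5.18%, 3.80 to 7.04%) and in 161 shared ones (2.34%, 2.01 to 2.73%). The median soft-masked share went the other way, at 11.6% and 12.7%, and so it did at promoters (8.26% and 11.1%) and elsewhere (13.3% and 14.9%).

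The promoter peaks touched 172 genes, 0.788% of the 21829 coding genes with a start site. Of these, 120 had no H3K27me3 within 1 kb of any start site in villi, while 52 kept another villi peak there, so an absent counterpart was not always an absent mark. Over all promoters, 2860 genes had H3K27me3 in crypts and 138 of them (4.83%) had none in villi. For 18 of the 138 a shared peak reached the promoter in crypts alone.

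Mfhas1, a leucine-rich repeat protein of innate immune signalling, had the highest score. Its peak, chr8:35588297-35590555, scored 25.9, and the nearest villi H3K27me3 was 174216 bp away. H3K4me3 overlapped part of the peak in both compartments and stood at the 35.9th percentile of its list in crypts and at the 53.8th in villi, and H3K4me1 at the 63.1st and 73.2nd. The second-highest peak, chr7:118709179-118711311 with 24.9, was intergenic and lay 1240 bp from the nearest coding start site, with Ccp110, which encodes a centriolar protein, as the nearest gene. It was CpG-poor, with a ratio of 0.099, and its H3K4me1 stood at the 61.4th percentile in crypts and the 98.0th in villi.

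Bmp8a, a ligand of the BMP family, had a peak of 24.2 at its promoter, with H3K4me3 at the 52.8th percentile in crypts and the 72.7th in villi. Necab2, a neuronal calcium-binding protein, had a peak of 24.0 and no H3K4me3 in either compartment. The uncharacterised C530008M17Rik (23.9) and 2210011C24Rik (23.6), the spermatogenesis gene Meig1 (23.6) and Tacc1 (23.6), which encodes a centrosomal coiled-coil protein, all had H3K4me3 in both compartments. Of these 4 genes, Tacc1 and 2210011C24Rik kept another villi H3K27me3 peak at the promoter. Inside genes, a peak of 22.5 lay in an exon of the splicing factor Prpf6 and another of 22.5 in an intron of Bach2, a transcriptional repressor of lymphocytes. The latter was 1047 bp from a start site and carried H3K4me3 in both compartments.

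Pmp22, which encodes a peripheral myelin protein, combined a high score (21.2) with one of the greatest widths (4197 bp, chr11:63130944-63135140). H3K4me3 stood there at the 30.8th percentile in crypts and the 68.0th in villi. The crypts H3K4me1 peak, at the 83.8th percentile, overlapped the H3K27me3 peak, whereas the villi H3K4me1 peak ended before it. The other promoters among the 12 highest were those of the potassium channel subunit Kcnmb4 (22.5), the sphingosine 1-phosphate transporter Spns2 (20.4), the neutrophil chemokine Cxcl2 (19.3) and Mylip (18.8), a ubiquitin ligase of the LDL receptor. Cxcl2 lacked H3K4me3 in both libraries, and the others had it in both. Kcnmb4 kept another villi H3K27me3 peak at the promoter. At Mylip H3K4me3 stood at the 48.9th percentile in crypts and the 76.3rd in villi.

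The widest peaks were mostly unlike these. The widest, chr9:43861174-43865987 (4814 bp), was intergenic with a score of 10.5 and none of the other modifications. The same held for a peak in an intron of the axon guidance gene Slit1 (3698 bp, 13.5), one over an exon of the RNA-binding protein gene Celf5 (3175 bp, 12.5) and an intergenic one, chr7:70518274-70521339 (3066 bp, 11.8). Only Pmp22 and C530008M17Rik (3570 bp) were promoters among the 6 widest.

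**Figure D2:**
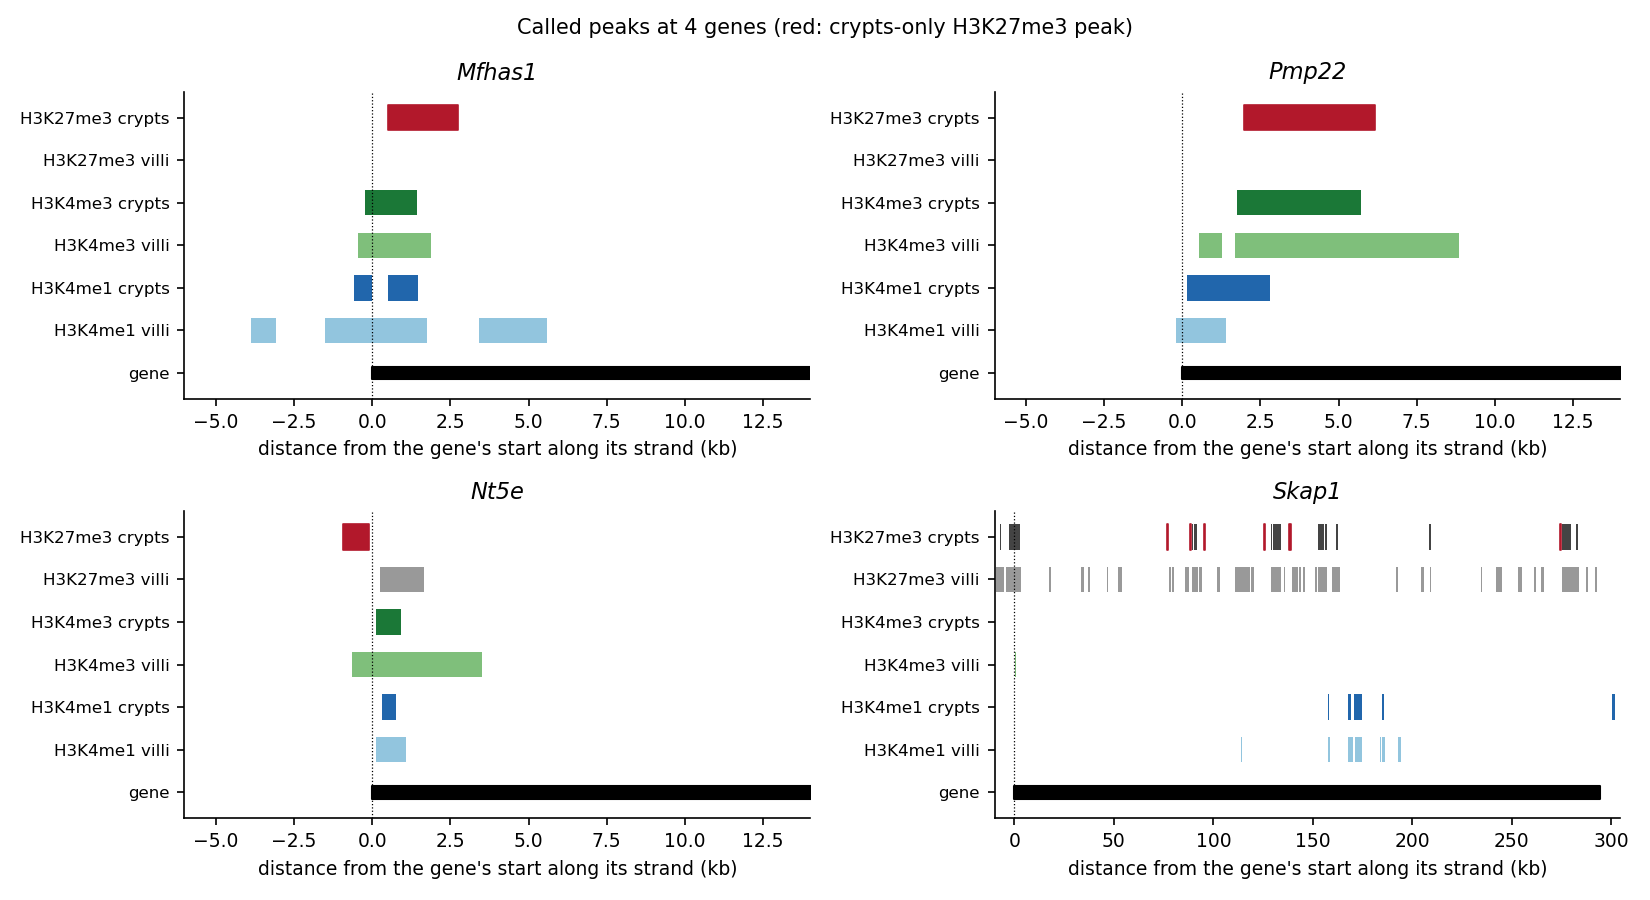
Called peaks of 3 modifications in crypts and villi at 4 genes, by distance (kb) from the gene's start along its strand. Crypts-only H3K27me3 peaks are red, and the black bar is the gene. No villi H3K27me3 was called near the start of Mfhas1 or Pmp22, whereas at Nt5e and along Skap1 it was called beside the crypts-only peaks.

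Promoter crypts-only peaks carried H3K4me3 more often than shared promoter peaks, in both compartments. H3K4me3 overlapped 101 of 165 in crypts and 101 in villi (61.2%, 53.6 to 68.3%), of which 96 had it in both, against 1305 (41.1%, 39.4 to 42.8%) and 1329 (41.8%, 40.1 to 43.5%) of 3178 shared ones. Over all coding genes, H3K4me3 was called within 1 kb of a start site at 57.7% in crypts and 57.9% in villi. That is a count of genes and not of overlapped peaks, but both values lie inside the crypts-only interval, and the shared share is below them. Away from promoters the shares were 5.11% (3.58 to 7.24%) and 6.49% (5.74 to 7.33%) in crypts, and 537 of 568 crypts-only peaks there had no H3K4me3 in either compartment. Over all positions the crypts-only share was the lower one, at 17.7% (15.1 to 20.7%) in crypts and 17.6% (15.0 to 20.5%) in villi, against 22.5% and 22.7%.

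The difference at promoters was seen among peaks of like width. For peaks of 600 to 1000 bp, H3K4me3 was present in crypts at 50.9% (37.9 to 63.9%) of crypts-only and 33.1% (27.7 to 39.0%) of shared promoter peaks. At 1000 to 1500 bp these shares were 71.4% (57.6 to 82.2%) and 40.7% (36.3 to 45.3%), and above 1500 bp they were 80.0% (62.7 to 90.5%) and 42.2% (40.2 to 44.2%). Under 600 bp the intervals overlapped, with 45.5% (29.8 to 62.0%) and 35.4% (25.8 to 46.4%), as they did just barely from 600 to 1000 bp. By score and at all positions, the shares were alike from 10 to 11, at 7.30% and 7.42%. The intervals met from 11 to 12, at 20.6% (15.1 to 27.4%) and 13.2% (10.9 to 16.0%), from 12 to 13, at 22.9% (14.6 to 34.0%) and 13.8% (11 to 17.1%), and from 13 to 15, at 22.0% (15.3 to 30.7%) and 17.2% (14.9 to 19.7%). They were apart from 15 to 20, at 38.6% (27.1 to 51.6%) and 23.4% (21.4 to 25.6%), and above 20, at 64.7% (41.3 to 82.7%) and 35.6% (33.7 to 37.6%).

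**Figure D3:**
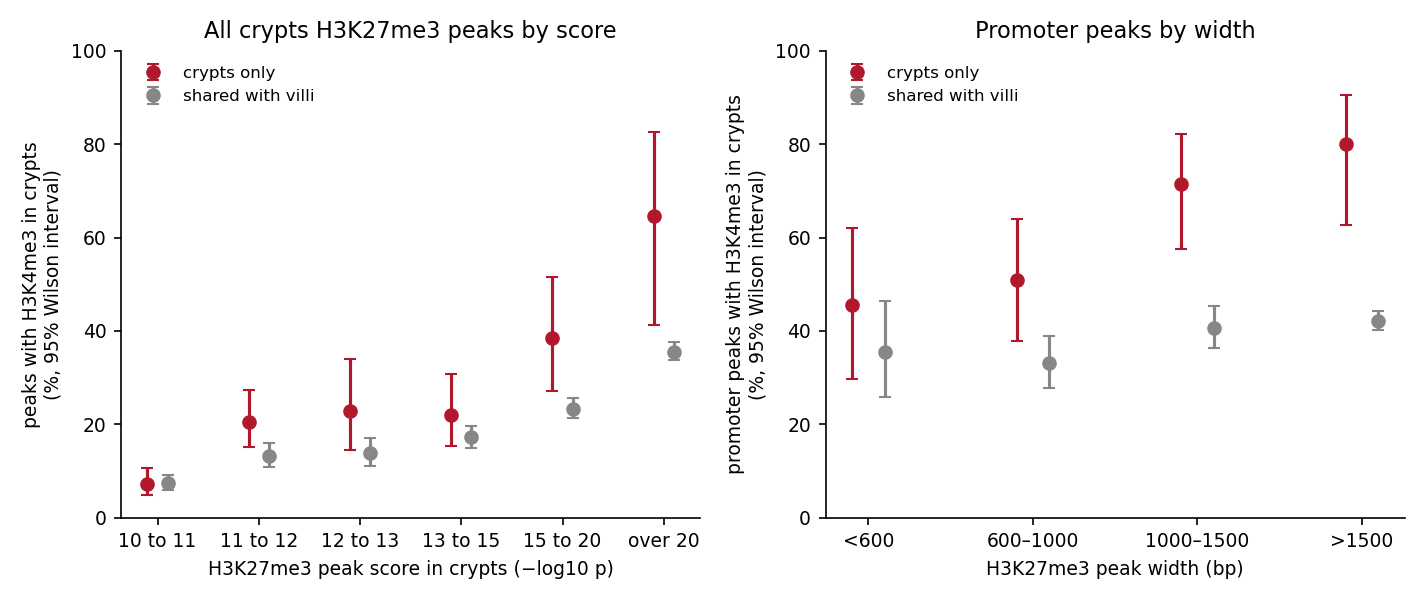
Share of crypts H3K27me3 peaks with H3K4me3 in crypts (%, points, with 95% Wilson intervals) for crypts-only (red) and shared (grey) peaks, by score at all positions (left) and by width at promoters (right). At promoters the crypts-only share is the higher in each width band, and reaches 80.0% above 1500 bp.

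Where H3K4me3 was present at promoter crypts-only peaks it also ranked higher in its own list. The percentile of the highest-scoring overlapping H3K4me3 peak had a median of 35.7 (quartiles 27.9 and 43.9) in crypts and 39.7 (29.3 and 52.5) in villi, against 23.8 (13.6 and 34.1) and 27 (15.2 and 37.8) at shared promoter peaks. The change from crypts to villi was of like size in both sets. Its median was 3.12 percentile points over 96 crypts-only peaks, 3.86 over 1161 shared ones and 1.16 over all 15388 crypts H3K4me3 peaks met by one in villi. The H3K27me3 and H3K4me3 of one promoter may come from different cells, which these libraries cannot tell apart.

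A call or a rank within a list does not measure the amount of a modification. From intensities scaled by spike-in, the study reports that H3K27me3 was retained at repressed promoters in villi. It reports that modifications nearer the end of the H3 tail were strongly reduced there at their sites. As a call, H3K4me3 was seldom lost or gained at the crypts-only peaks. Of 130 that had it in crypts, 8 lacked it in villi (6.15%, 3.15 to 11.7%), where the share over all crypts H3K27me3 peaks was 11.7%. Of 603 without it in crypts, 7 had it in villi (1.16%, 0.563 to 2.38%), against 3.55% over all. Split by position, the intervals met for both changes. At promoters H3K4me3 was gained at 5 of 64 crypts-only peaks (7.81%, 3.38 to 17.0%) and 168 of 1873 shared ones (8.97%, 7.76 to 10.3%). Elsewhere these shares were 0.371% (0.102 to 1.34%) and 1.04% (0.753 to 1.44%). At promoters it was lost at 5 of 101 (4.95%, 2.13 to 11.1%) and 144 of 1305 (9.45 to 12.9%). Elsewhere it was lost at 10.3% (3.58 to 26.4%) and 18.3% (13.9 to 23.7%). At the level of whole promoters, 6 of the 172 genes with a crypts-only peak had H3K4me3 in 1 compartment (3.49%, 1.61 to 7.40%), against 2.33% of all coding genes and 8.29% of those with promoter H3K27me3 in crypts. It was called in crypts alone at Dmtn, which encodes an actin-bundling protein, at the sperm membrane protein gene Pkdrej and at Chrm1, a muscarinic acetylcholine receptor. It was called in villi alone at Cntfr, the receptor of ciliary neurotrophic factor, at Lynx1, a modulator of nicotinic receptors, and at the orphan receptor gene Gpr75. Their H3K27me3 scores were 13.7, 11.8, 10.9, 12.5, 11.6 and 10.9, and Dmtn and Lynx1 kept another villi H3K27me3 peak at the promoter.

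H3K4me1 differed from H3K4me3 in its behaviour between compartments. It overlapped 187 crypts-only peaks (25.5%, 22.5 to 28.8%) in crypts and 174 (23.7%) in villi, whereas at shared peaks the share was 35.0% in crypts and 39.1% in villi. Of the 187, 39 had no H3K4me1 in villi (20.9%, 15.6 to 27.2%). Over all crypts H3K27me3 peaks this share was 10.3%, and over the shared ones alone 9.43% (8.32 to 10.7%). In bands of score the intervals of this share met throughout. The crypts-only and shared values were 27.7% (16.9 to 41.8%) and 17.6% (11.8 to 25.5%) from 10 to 11. From 15 to 20 they were 28.6% (15.3 to 47.1%) and 12.4% (9.79 to 15.5%), and the order was reversed from 11 to 12, at 11.4% and 15.8%. Of 546 crypts-only peaks without H3K4me1 in crypts, 26 had it in villi (4.76%, 3.27 to 6.89%), against 10.7% over all and 11.4% (10.5 to 12.4%) of shared peaks. By score the crypts-only and shared values of this share were close up to 15. They were 3.36% and 4.26% from 10 to 11, 6.61% and 5.86% from 11 to 12, 3.85% and 4.40% from 12 to 13, and 8.22% and 7.85% from 13 to 15. From 15 to 20 they were 3.45% (0.611 to 17.2%) and 13.1% (11.1 to 15.3%), and above 20 they were 0 of 3 and 25.1%.

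At promoters the contrast was wider. H3K4me1 of crypts was missing in villi at 21 of 104 crypts-only peaks (20.2%, 13.6 to 28.9%) and at 125 of 1743 shared ones (7.17%, 6.05 to 8.48%), and H3K4me1 was called in villi alone at 4 of 61 (6.56%, 2.58 to 15.7%) and 328 of 1435 (22.9%, 20.8 to 25.1%). Away from promoters the intervals met, with H3K4me1 lost at 21.7% (14.2 to 31.7%) and 15.3% (12.8 to 18.3%) and called in villi alone at 4.54% (3.01 to 6.77%) and 5.96% (5.18 to 6.86%). The losses at promoters were also split by width, in bands with few crypts-only peaks, where their lost share neither rose nor fell steadily with width. The lost shares of crypts-only and shared promoter peaks were 1 of 17 (5.88%) and 5 of 29 (17.2%) under 600 bp, 10 of 26 (38.5%, 22.4 to 57.5%) and 13 of 98 (13.3%, 7.92 to 21.4%) from 600 to 1000 bp, 5 of 38 (13.2%) and 23 of 206 (11.2%) from 1000 to 1500 bp, and 5 of 23 (21.7%, 9.66 to 41.9%) and 84 of 1410 (5.96%, 4.84 to 7.32%) above. For these losses the intervals were thus apart from 600 to 1000 bp and above 1500 bp and met in the other bands. For H3K4me1 called in villi alone, the crypts-only share was the lower one in each width band, but the intervals met in every band. Shared promoter peaks were also wider, with a median of 2510 bp against 934 bp. Over all positions, when a villi H3K4me1 peak within 1 kb was also counted as present, 23 of 187 crypts-only (12.3%, 8.34 to 17.8%) and 141 of 2408 shared peaks (5.86%, 4.99 to 6.87%) remained without it.

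**Figure D4:**
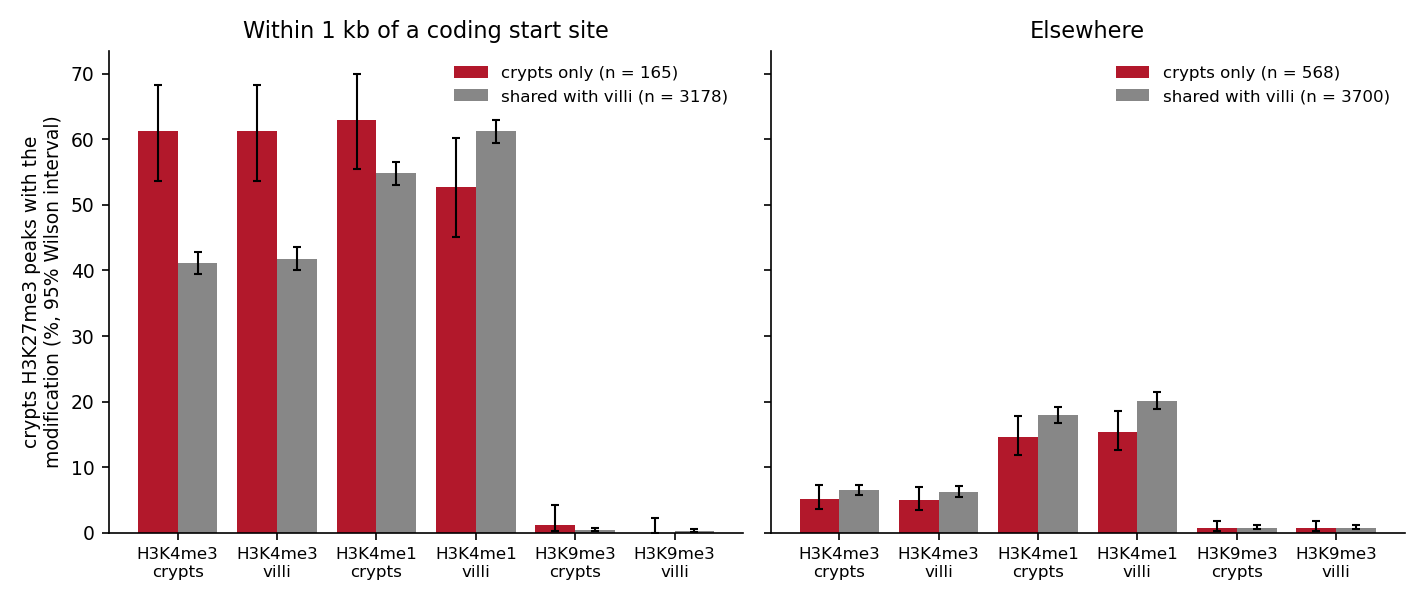
Share of crypts H3K27me3 peaks (%, bars, with 95% Wilson intervals) that overlap H3K4me3, H3K4me1 or H3K9me3 in crypts and in villi, at promoters (left) and elsewhere (right), for crypts-only (red) and shared (grey) peaks. At promoters the crypts-only peaks carry H3K4me3 more often (61.2% against 41.1% in crypts), and their H3K4me1 share is 63.0% in crypts and 52.7% in villi, whereas at shared peaks it is 54.8% and 61.2%.

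The rank of H3K4me1 was compared where it was called in both compartments. Over 83 such promoter crypts-only peaks, the villi percentile minus the crypts percentile had a median of -4.70 points (quartiles -19.6 and 10.3), and it was below 0 at 46 of them. Over 1618 shared promoter peaks the median was 14.5 points (-0.879 and 32.6), with 427 below 0, and over all 44666 crypts H3K4me1 peaks met by one in villi it was 0.486 points. A low rank in crypts leaves more room to rise, and crypts-only peaks started higher, at a median percentile of 55.5 against 47.6. Among peaks of like starting rank the medians were 8.54 and 35.8 points in the lowest 25% (11 and 348 peaks), -3.35 and 26.0 in the next (18 and 471), -8.28 and 10.9 in the one above (31 and 478) and -10.3 and 1.39 in the highest (23 and 321). The crypts-only median was the lower one at each starting rank, although the quartile ranges overlapped. By width the crypts-only and shared medians were 8.12 and 11.8 points under 600 bp (16 and 24 peaks), -8.80 and 10.5 from 600 to 1000 bp, -9.42 and 9.17 from 1000 to 1500 bp and -3.76 and 15.1 above, so the median was above 0 in the narrowest peaks. Without the peaks within 1 kb of villi H3K27me3 the median at promoters was -1.33 points. Over all positions the median of crypts-only peaks was -14.9 points within 1 kb of villi H3K27me3 (20 of 29 below 0), -1.22 at 1 to 10 kb (24 of 44) and 1.51 further away (35 of 75), so its direction turned with distance.

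**Figure D5:**
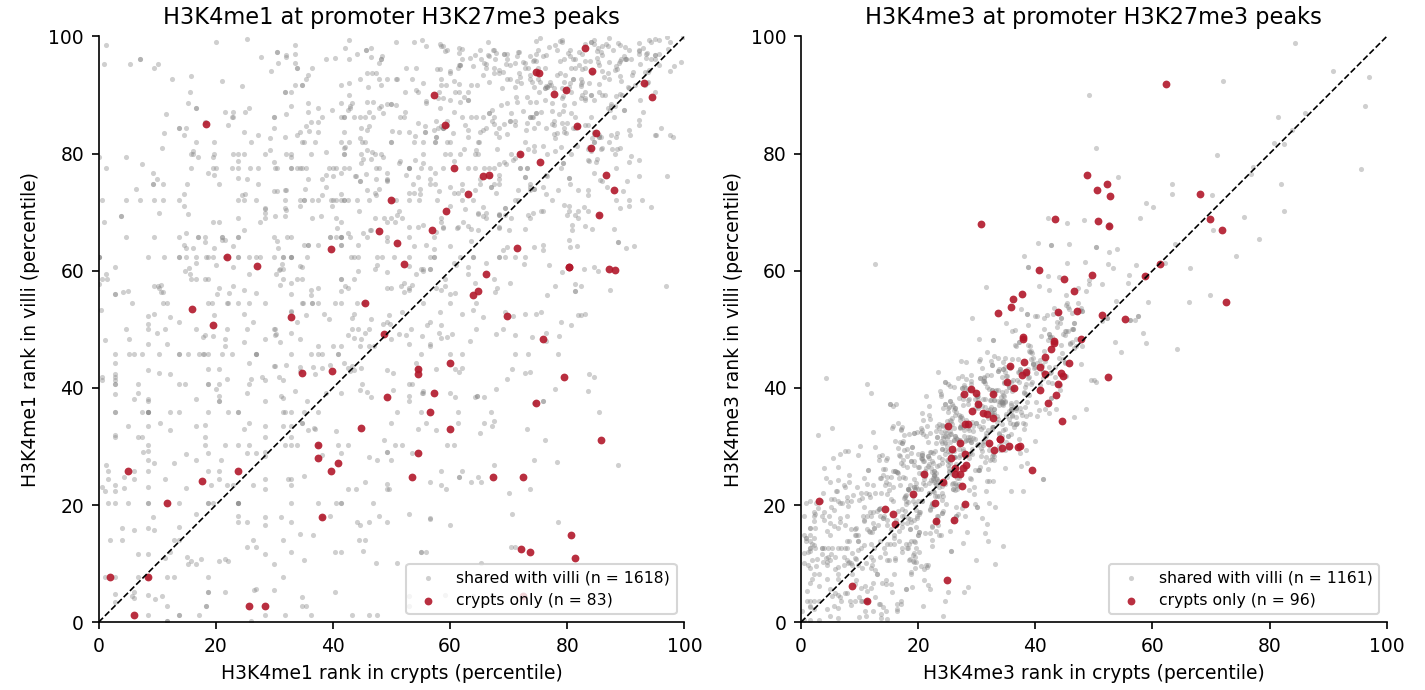
Rank of H3K4me1 (left) and H3K4me3 (right) at promoter H3K27me3 peaks, as the percentile in the crypts list (horizontal) and in the villi list (vertical). Each point is a peak with the modification in both, red for crypts-only and grey for shared, and the dashed line marks equal ranks. Shared peaks lie mostly above the line for H3K4me1 (median difference 14.5 points) and crypts-only peaks on both sides of it (-4.70 points), while for H3K4me3 both sets lie close to the line.

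Counted by gene, H3K4me3 was present in both compartments at 109 of the 138 promoters that had H3K27me3 in crypts and none in villi (79.0%, 71.4 to 85.0%), and at 1235 of the 2722 that kept it (45.4%, 43.5 to 47.2%), beside 56.6% of all coding genes and 58.8% of those without promoter H3K27me3 in either compartment. Neither library had H3K4me3 at 24 (17.4%), among them the keratin gene Krt12, Necab2, Cxcl2 and the potassium channel subunit gene Kcne2. H3K4me1 was called in crypts and missing in villi at 11 of the 114 of these promoters that had it in crypts (9.65%, 5.47 to 16.5%), a share near the 9.83% over all coding genes. At promoters that kept H3K27me3 it was 5.37% (4.39 to 6.54%), so the intervals met, unlike those of the promoter peaks. The 11 genes were Adora2b, an adenosine receptor gene, Apcdd1, a Wnt inhibitor, Dusp14, a phosphatase of MAP kinases, Elavl4, Hk2, which encodes hexokinase 2, Pdgfc, a growth factor gene, and Macrod2, Paqr8, Rnf219, Sned1 and Zfp37. Of the 24 without H3K4me1 in crypts, 2 had it in villi, Nsg2 and Stk26 (8.33%, 2.32 to 25.8%), against 9.38% over all coding genes and 26.2% (23.6 to 29.0%) of those that kept H3K27me3.

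H3K9me3 was rare. It met 6 crypts-only peaks in the crypts library (0.819%, 0.376 to 1.77%) and 4 in the villi library (0.546%, 0.212 to 1.39%), shares whose intervals held those of shared peaks (0.625% and 0.567%). At promoters, H3K9me3 of crypts alone overlapped the peak shared by Gpc2, a glypican gene, and the meiotic cohesin gene Stag3 (chr5:138280359-138281398, 17.3) and the peak at Rbmxl2, a testis RNA-binding protein gene (chr7:107209182-107209720, 10.7), although H3K9me3 of villi was called elsewhere at the Rbmxl2 promoter. An intergenic peak with H3K9me3 in both compartments, chr16:20914148-20914957, was soft-masked over 92.2% of its bases.

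Genes of the intestinal lineages and of signalling pathways were counted in 17 lists, of which 4 had a promoter with a crypts-only peak. Over all coding genes the share was 0.788%, which is less than 1 gene in each list, so these counts do not set any list apart. Among 58 enterocyte genes it was Nt5e (10.2), the ectonucleotidase CD73, where the peak lay upstream of the start and a villi H3K27me3 peak 324 bp further on, so the promoter kept H3K27me3. H3K4me3 overlapped this peak in villi alone, at the 34.9th percentile, although crypts had a narrower H3K4me3 peak beside it. Among 42 genes of BMP, TGF-beta and hedgehog signalling, Bmp8a and Bmp7 (10.2) had one and no H3K27me3 in villi, and Tgfbr1, a TGF-beta receptor gene, lost promoter H3K27me3 without such a peak. At Bmp7 H3K4me1 stood at the 88.1st percentile in crypts and the 60.1st in villi. Of 14 neuron and glia genes it was Elavl4 (14.4), which encodes a neuronal RNA-binding protein, with H3K4me3 in both compartments and H3K4me1 in crypts alone. Of 39 Hox genes it was Hoxd4 (10.6), and all 39 had promoter H3K27me3 in both compartments.

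The lists of stem cell, villus regulator, Paneth and goblet, tuft, enteroendocrine, lymphocyte, myeloid, mesenchymal, endothelial, Wnt, Notch, cyclin-dependent kinase inhibitor and Polycomb genes had no promoter with a crypts-only peak. In crypts, H3K27me3 was called at promoters of 5 stem cell genes, 17 enteroendocrine genes and 37 Wnt genes. Of these lists, the myeloid one held 1 gene that lost promoter H3K27me3, the complement gene C1qa. By symbol, 14 families of developmental regulators and ligands were counted together (among them Hox, Pax, Sox, Fox, Lhx, Nkx, Tbx, Gata, Irx, Klf, Wnt, Fgf and Bmp genes). Of their 257 genes, 167 had promoter H3K27me3 in crypts, and 2 of the 167 lacked it in villi (1.20%, 0.329 to 4.26%), Bmp7 and Bmp8a, beside 4.83% over all genes. Slc6a4, the serotonin transporter gene, had promoter H3K27me3 in crypts and none in villi, and a second crypts-only peak lay 1729 bp from its start.

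Within or beside genes, 367 coding genes had a crypts-only peak and 25 had more than 1. Skap1, an adaptor of T-cell receptor signalling, had the most, with 6 peaks scoring 10.5 to 11.6. All 6 lay inside the gene, 277 to 2951 bp from villi H3K27me3, and none met H3K4me3 or H3K4me1. Over the gene and 1 kb on either side, H3K27me3 covered 24653 bp in crypts and 69185 bp in villi, so these peaks stood in a region with more called H3K27me3 in villi. The same held for Megf11, a transmembrane protein with EGF-like repeats (4 peaks, 25768 and 58687 bp), and for the locus Gm20388 (4 peaks), whose annotated span covers other genes. The whole H3K27me3 lists covered 20260670 bp in crypts and 35588818 bp in villi, so more called H3K27me3 in villi was not particular to these loci. By contrast, all H3K27me3 peaks of Alox5ap, Cacnb1, Grasp, Lzts1 and Pde6a were crypts-only, with 2 peaks each and no villi peak. These 5 genes were picked out after their values were seen. Alox5ap encodes the 5-lipoxygenase activating protein, which is used by tuft cells for leukotriene synthesis. Its peaks scored 16.4 and 10.7, lay 123301 and 141268 bp from villi H3K27me3 and carried neither H3K4me3 nor H3K4me1 in either compartment.

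The compartments were checked by H3K4me3 at promoters of marker genes. All 8 epithelial and all 8 enterocyte markers had it in both, 6 of 6 stem cell markers in crypts and 5 in villi (not Olfm4), and of 5 Paneth cell markers none in crypts and Ang4 in villi. Of 8 lymphocyte markers none had it in crypts and 4 in villi, Ptprc, Cd3e, Cd3g and Cd8a, and H3K27me3 was called at 2 of them, Cd3e and Cd3g, in villi alone. No myeloid marker had it in either compartment, Pdgfra in crypts and Col1a1 and Pdgfra in villi were the mesenchymal ones, Kdr had it in villi, and of 4 neuron and glia markers Elavl4 had it in both. Of all these markers, Elavl4 alone had a crypts-only peak. The part of lymphocytes and other cells of villi in the absence of H3K27me3 calls was not tested, and fewer cells with H3K27me3 cannot be told apart from less of it per cell.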

How the data were processed

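Read pairs were aligned to mm10 and the fly genome by the authors, who removed duplicates, discarded reads mapping to both genomes and called peaks per library with MACS2. The submitters' processing notes name Bowtie 1.1.2, MACS2 2.1.1 and deepTools 3.1. The deposited −log10 p-value of each peak was read from the stated threshold, and a q-value is possible. No spike-in scaling enters it, and it was used to rank, filter or describe peaks within a list. Amounts of chromatin and the beads differ between labels and methods. The 2 H3K9me2 lists were not used. A further window and most gene families that were counted are not reported here. The crypts-only peaks, gene lists and naming rules were chosen with earlier results of these data known.

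Overlaps (minimum 1 bp) were computed in Python 3.11.15 with pandas 2.3.3 and NumPy 2.4.6, checked with bedtools 2.31.1 and tested on simulated peaks. Wilson intervals came from SciPy 1.17.1 and plots from Matplotlib 3.10.9. Start sites came from GENCODE M21 and sequence from RefSeq's GRCm38. Named genes were the 10 highest-scoring peaks, the 12 highest at promoters, the listed genes with a promoter peak, the 6 widest, up to 8 with H3K4me3 in 1 compartment and those with most peaks. Depth is unknown and no test was made. Alternatives covered the overlap rule, list thresholds, promoter window, upper scores and chromosomes, and bands of score, width, distance and rank were set after the data were seen.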

Additional observations from a re-analysis of the deposited data

How the results depend on the processing

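No paired analysis was possible because the results come from no test. Of 44 alternatives, 21 left a share or median inside the 95% interval of the reported value, or a count within 1.5 times of it, and 23 did not, and the cause was not tested. The crypts-only peaks numbered 3372 with a reciprocal overlap of 50%, 1730 against the top 50% of the villi list and 74 within the top 50% of the crypts list. Promoters with H3K27me3 in crypts alone numbered 350 against the top 50% of the villi list. The promoter share was 34.7% with a window of 5 kb and 29.2% in the upper 50% of crypts-only peaks by score, where the median width was 943 bp. In that upper 50%, H3K4me3 met 24.7% in crypts and 24.1% in villi, and H3K4me1 32.6% and 30.5%. With an overlap of at least 50% of the peak, these shares were 6.41%, 6.14%, 13.4% and 12.3%, and with the top 50% of the other list 2.46%, 4.64%, 14.1% and 12.7%. Without the peaks within 1 kb of villi H3K27me3, villi H3K4me1 met 27.4% and villi H3K9me3 0.196%. In alternatives added after seeing the data, the share of crypts H3K4me1 missing in villi was 12.3% when villi H3K4me1 within 1 kb counted, and H3K4me3 met 44.1% of promoter peaks in crypts with a window of 5 kb. The median villi minus crypts rank of H3K4me1 at promoter crypts-only peaks was -3.90 points in the upper 50% and -1.33 without the peaks within 1 kb of villi H3K27me3. The depth of the libraries, which limits every absence of a call, is unknown.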
